A study of Homo sapiens with 24 samples.

Results

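The Fadu line was exposed to cold plasma and its messenger RNA was compared with that of untreated Fadu cells. Fadu is an established human line, derived from a hypopharyngeal tumour of squamous type. The 6 libraries used were chosen from the 24 of the series by their cell line label, 3 from cells given 60 s of Piezo-CAP and 3 from cells given 0 s, and all genes measured in them were considered. Piezo-CAP produces cold atmospheric plasma with a piezoelectric device, that is, a weakly ionised gas near room temperature, and delivers reactive oxygen and nitrogen species to cells and medium. Both groups carried the genotype label WT, were grown in MEM with 10% serum, were seeded in plates overnight and were collected for RNA 24 h later. The Cal27, A375 and Hth83 lines of the same series received the same 2 exposures, with 3 libraries in each group, but were grown in DMEM, and are used here only to show where Fadu differed. The labels count all 4 lines as head and neck cancer cells. Cal27 is a tongue squamous line, of squamous type like Fadu, but A375 is a melanoma line. The lines therefore also differ in lineage, with Cal27 sharing that of Fadu. The labels do not say whether replicates were grown as separate cultures. The p-values given here therefore measure the spread between these libraries, which may be technical.

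A squamous carcinoma keeps much of the program of a layered epithelium. Basal keratins (KRT5, KRT14), the transcription factor TP63 and adhesion molecules mark the cells that divide, whereas other keratins and envelope proteins are made as cells mature. Cells answer reactive oxygen chiefly through NRF2, a transcription factor that turns on genes of glutathione and thioredoxin metabolism, and answer shortage of amino acids or misfolded protein through ATF4 and the endoplasmic reticulum stress sensors. Growth factors act through the kinase ERK, whose activity can be read from genes that ERK turns on and that in turn restrain it, such as the DUSP phosphatases and the Sprouty proteins.

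The deposited counts summed to 33697194, 37485101 and 30721840 reads in untreated replicates 1 to 3 and to 29022681, 35340939 and 31150311 reads in plasma replicates 1 to 3. Levels are given as CPM, the counts-per-million scale of edgeR after TMM scaling of the libraries, which is not corrected for gene length and so is compared within a gene only. In untreated Fadu cells 23 of 24 squamous epithelium markers stood above 10 CPM, and KRT6B was the exception. Leukocyte markers were near 0, with 3 of 18 reaching enough counts to be tested, 5 at 0 in all 6 Fadu libraries and a summed level of 7.59 to 10.7 CPM untreated and 8.81 to 9.85 CPM after plasma. Of the fibroblast markers PDGFRA and LUM had no count, and 3 of 12 were tested. Only 2 of the 12 stood above 10 CPM untreated, and the median untreated level of the members was 0.0302 CPM. Their summed level was 183 to 187 CPM untreated and 101 to 114 CPM after plasma. The part of these markers in the changes of matrix genes was not tested. The first principal component of the 6 libraries held 83.5% of the variance and separated the groups, and the second held 4.47% and set plasma replicate 3 apart from plasma replicates 1 and 2. Plasma replicate 1 was the nearest of the 3 plasma libraries to untreated cells in 247 of the 304 genes that fell at least 2-fold and reached 10 CPM in a group. No count was recorded for any of the 37 mitochondrially encoded genes, so the share of mitochondrial RNA could not be measured. In bulk RNA, fewer cells that use a gene and less RNA per cell cannot be told apart.

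Plasma was followed by many changes, most of them small. In edgeR's quasi-likelihood test, with p-values adjusted by Benjamini and Hochberg's method and a threshold of 0.05, 10200 of 19152 tested genes passed (53.3%), of which 5031 rose (26.3% of genes tested) and 5169 fell (27%). The median size of the change among them was 0.46 on the log2 scale. A change of at least 2-fold was seen in 1814 genes (9.47%), with 887 rises (4.63%) and 927 falls (4.84%), and among genes that reached 10 CPM in a group 199 rose and 304 fell by that much. The untreated and plasma libraries did not overlap in 11223 genes (58.6%). Of the genes that passed, 49.3% rose, against 61.8% when libraries were scaled by their totals alone, a scaling that moved the median of all genes by 0.10 on the log2 scale. Small changes are therefore relative to the bulk of the transcriptome. Among protein-coding genes 4223 of 13820 rose and 4653 fell. The counts of list members given below are to be read against the shares of all genes tested, 26.3% for rises and 27% for falls. The lists were chosen with earlier results of these data known, so a departure from these shares is a description and not a test.

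**Figure D1:**
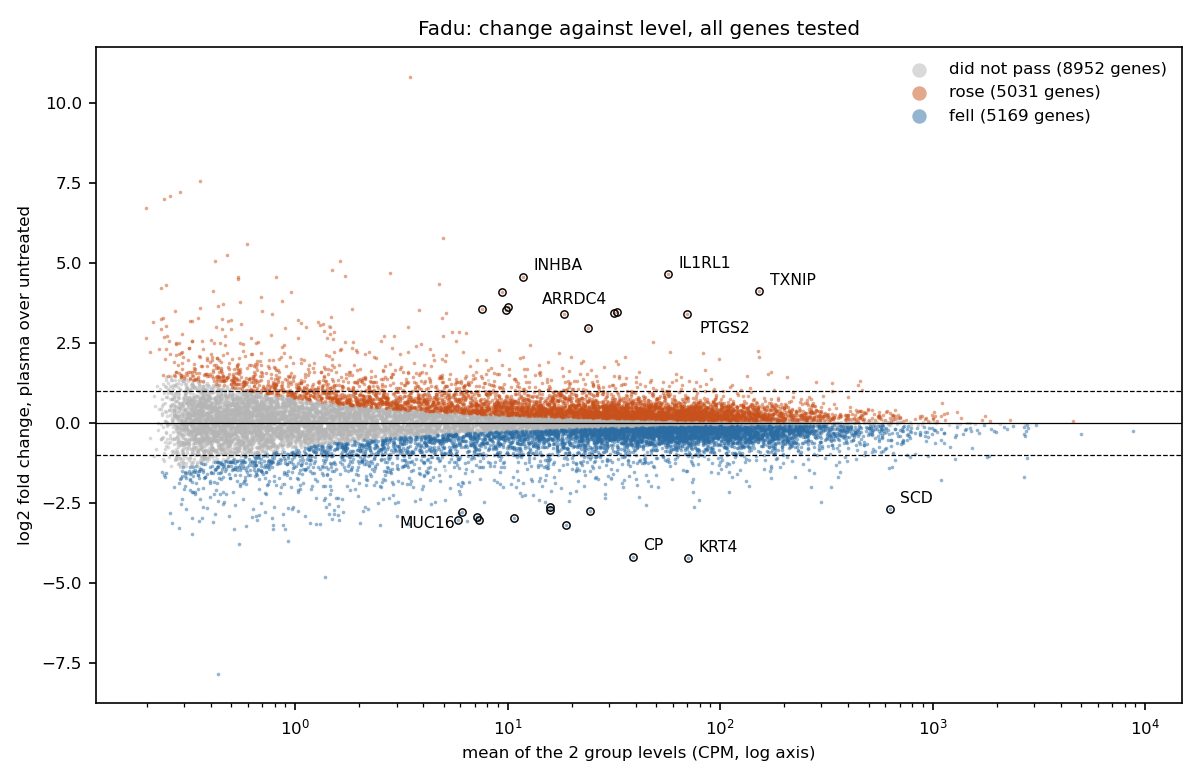
Each point is 1 of the 19152 genes tested in Fadu, with the mean of the untreated and plasma levels in CPM on a log axis across and the log2 fold change upwards. Orange points rose (5031), blue points fell (5169), grey points did not pass, dashed lines mark a 2-fold change, and circles mark the 12 largest rises and 12 largest falls among genes that reached 10 CPM, which sit far outside the bulk of the points.

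The largest rises joined signalling molecules, secreted enzymes and a pair of metabolic regulators. IL1RL1, the receptor for interleukin 33 (GRCh38 chromosome 2, bases 102311502 to 102352037), stood at 3.77, 5.25 and 3.88 CPM in the untreated libraries and at 105, 116 and 108 CPM in the plasma libraries. It rose 25.3-fold (log2 fold change 4.66, SE 0.07, adjusted p 2.7e-58), and the lowest plasma library lay far above the highest untreated one. INHBA encodes the subunit of activin A (chromosome 7, bases 41667168 to 41705834), a member of the TGF-beta family. Its level went from 0.927, 0.691 and 1.25 CPM to 21.5, 22.8 and 23.6 CPM, a 24-fold rise (log2 4.58, SE 0.14, adjusted p 4.55e-48). TXNIP, which binds thioredoxin and limits glucose uptake (chromosome 1, bases 145992435 to 145996600), measured 17.3, 15.6 and 16.4 CPM untreated and 274, 301 and 294 CPM after plasma (log2 4.14, SE 0.05, adjusted p 2.01e-82). ARRDC4, the alpha-arrestin most closely related to TXNIP and likewise tied to glucose uptake, measured 4.7, 5.91 and 5.47 CPM and 57.9, 61.8 and 60.5 CPM (log2 3.48, SE 0.08). Both alpha-arrestins thus rose more than 10-fold.

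Enzymes that make lipid mediators and adenosine were also among the 12. PTGS2 (cyclooxygenase 2), which makes prostaglandins, stood at 13.8, 12.3 and 9.79 CPM untreated and 119, 132 and 130 CPM after plasma (log2 3.40, SE 0.08, adjusted p 1.27e-21). SPHK1, the kinase that makes sphingosine 1-phosphate, measured 4.11, 2.43 and 3.04 CPM and 30.2, 32.1 and 38.8 CPM (log2 3.41, SE 0.13, adjusted p 1.24e-19). NT5E (CD73), the surface enzyme that releases adenosine from AMP, measured 5.32, 5.72 and 4.72 CPM and 54, 61.5 and 58.6 CPM (log2 3.46, SE 0.08, adjusted p 4.99e-57). No overlap between groups was a condition for all 12. The rest were the keratinocyte cation channel TRPV3 (log2 4.11), the mesenchymal cadherin CDH11 (3.63), the epidermal lipoxygenase ALOXE3 (3.57), the stromelysin MMP3 (3.54) and the esterase AADAC (2.98).

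The largest falls held products of epithelial maturation, lipid genes and secreted proteins. KRT4, a keratin of the upper layers of wet mucosa (chromosome 12, bases 52806549 to 52814551), stood at 136, 137 and 129 CPM untreated and 14.4, 4.64 and 3.39 CPM after plasma (log2 -4.21, SE 0.47, adjusted p 0.0017). CP encodes ceruloplasmin, a copper-carrying ferroxidase (chromosome 3, bases 149162410 to 149222055), and measured 76, 71.8 and 72.9 CPM and 7.3, 2.95 and 2.31 CPM (log2 -4.17, SE 0.37, adjusted p 0.00072). In both genes plasma replicate 1 kept the highest level of the plasma libraries, yet all plasma libraries lay well below all untreated ones. Without plasma replicate 1 the log2 fold change was -5.05 for KRT4 and -4.80 for CP. The same library moved ALDH3B2, an aldehyde dehydrogenase, from -2.93 to -3.62 when left out. SCD, the desaturase that makes oleate (chromosome 10, bases 100347124 to 100364834), measured 1078, 1107 and 1081 CPM untreated and 208, 160 and 143 CPM after plasma, a fall of 6.4-fold (log2 -2.68, SE 0.16, adjusted p 0.00016). Others were the vasoconstrictor EDN2 (log2 -3.17), the fast skeletal troponin TNNT3 (-3.04), the mucin MUC16 (-3.03), the secreted protease HTRA3 (-2.96), filaggrin FLG (-2.79), the complement protease C1R (-2.73) and the Wnt ligand WNT4 (-2.63). Passing the test without overlap between groups was a condition for being named here.

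**Figure D2:**
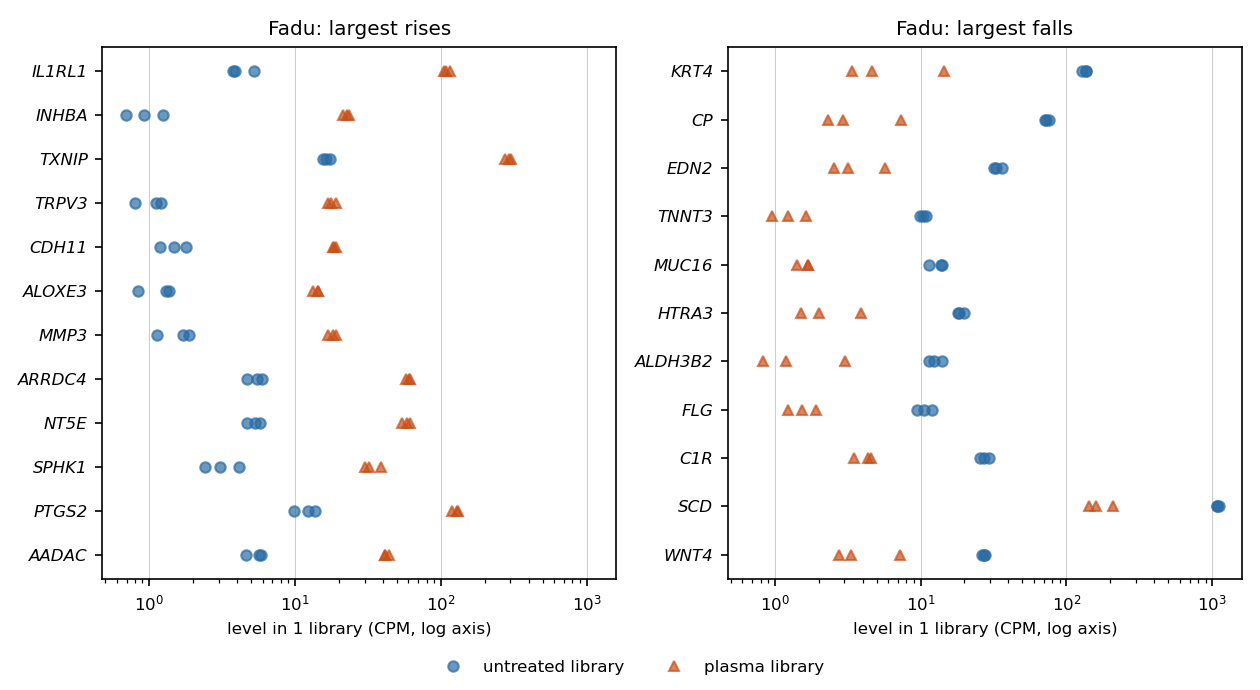
Levels of the largest rises (left) and largest falls (right) named in the text, in each Fadu library, in CPM on a log axis, with blue circles for the 3 untreated and orange triangles for the 3 plasma libraries. The genes were chosen to show no overlap between groups. IL1RL1 moves from 3.77 to 5.25 CPM up to 105 to 116 CPM. In several falls, among them KRT4, CP, HTRA3 and WNT4, a single plasma library stands to the right of the others.

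Most genes of the list chosen to report ERK activity rose. Of 17 tested members of the ERK output and feedback list 15 rose, 1 fell and 1 did not pass, where 26.3% of all genes tested rose and 27% fell. The list had a median log2 fold change of 1.02, against 0.01 over all genes, and 9 members rose at least 2-fold. Among the phosphatases that switch ERK off, DUSP6 measured 15.1, 11.4 and 12.5 CPM untreated and 42.8, 44.8 and 43.4 CPM after plasma (log2 1.75, SE 0.08, adjusted p 1.81e-34), and DUSP4 measured 8.9, 10.4 and 8.87 CPM and 29.8, 36.2 and 38.6 CPM (log2 1.89, SE 0.09). Plasma libraries were higher in both without overlap. DUSP1, a phosphatase induced early by many stresses, was the member that fell, from 53, 51.6 and 50.3 to 39.8, 37 and 39 CPM. Of the Sprouty and SPRED proteins, which hold back receptor signals, SPRY4 (log2 2.82), SPRED3 (2.73), SPRY2 (1.69) and SPRY1 (1.02) rose at least 2-fold. The ERK-driven transcription factor ETV4 measured 16.4, 16.9 and 16.8 CPM and 45.1, 46.8 and 47.7 CPM (log2 1.48, SE 0.07), PHLDA1 measured 48.6, 51.7 and 50.3 CPM and 125, 140 and 129 CPM (1.39, SE 0.05), and the cytokine IL11 rose by 3.01 on the log2 scale from a low level. The cell cycle cyclin CCND1 rose little, by 0.42 on the log2 scale, and EPHA2 (0.20), SPRED1 (0.18) and DUSP5 (0.16) rose less.

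Upstream of this pathway, most tested ligands of the EGF family rose and the receptors fell. The ligands TGFA (log2 1.29), NRG1 (0.71), HBEGF (0.59), AREG (0.53) and EREG (0.28) rose, while BTC fell (-0.61, a call lost with limma on log2(TPM + 1) without a filter, adjusted p 0.058) and EPGN did not pass. TGFA, which binds EGFR, measured 33.5, 30.1 and 30.3 CPM untreated and 76.8, 77.5 and 75.2 CPM after plasma, with no overlap (SE 0.05, adjusted p 7.41e-38). The receptors EGFR (log2 -0.35), ERBB2 (-0.43) and ERBB3 (-0.52) fell, as did the receptor inhibitors ERRFI1 (-0.76) and LRIG1 (-1.17). EGFR itself measured 977, 971 and 984 CPM and 776, 771 and 759 CPM. Of the 25 immediate early and AP-1 genes 6 rose and 16 fell, with a median of -0.42. FOSL1, an AP-1 subunit known to follow sustained ERK activity, measured 57.8, 58.1 and 60.8 CPM untreated and 233, 248 and 259 CPM after plasma (log2 2.07, SE 0.04, adjusted p 7.32e-63). The early subunits FOS (log2 -1.09) and FOSB (-1.64) and the early factors EGR1 (-0.97) and EGR2 (-2.54) fell. Besides FOSL1, the members that rose were IER3 (log2 1.09), KLF6 (1.06), IER5 (0.40), MAFF (0.27) and KLF10 (0.12). The list thus moved in both directions at 24 h, with more falls than rises.

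Genes of matrix turnover and motility rose more often than they fell. Of 35 tested genes of the matrix, protease and epithelial-mesenchymal transition list 20 rose and 10 fell, with a median of 0.51, and 13 rose at least 2-fold. The collagenase MMP1 measured 40.7, 40.1 and 37.6 CPM untreated and 158, 160 and 154 CPM after plasma (log2 2.0, SE 0.05, adjusted p 1.07e-58), and MMP10 rose by 1.59 on the log2 scale. FST, follistatin, which binds and blocks activin, measured 53.2, 51.5 and 51.6 CPM and 246, 247 and 253 CPM (log2 2.25, SE 0.04, adjusted p 2.87e-67), so that the activin subunit INHBA and the activin antagonist rose together. HMGA2, a chromatin protein linked to invasion, measured 20.3, 20.1 and 21.2 CPM and 92, 96.8 and 97.6 CPM (log2 2.22, SE 0.06). TGFB1 (log2 1.34), the matrix glycoprotein TNC (1.92), the protease inhibitor TIMP1 (1.28), the urokinase receptor PLAUR (1.68) and the integrin ITGA5 (0.75) rose as well. Members that fell included MMP7 (log2 -3.17), the TGF-beta induced matrix protein TGFBI (-1.15), the plasminogen activator PLAT (-1.14), the integrin ITGAV (-0.93) and the membrane protease MMP14 (-0.53). Of the factors that define the transition, SNAI1 (log2 1.14), TWIST1 (0.56) and ZEB1 (1.15) rose from below 10 CPM. With limma on log2(TPM + 1) without a filter TWIST1 (adjusted p 0.204) and ZEB1 (0.0634) lost the call. SNAI2 did not pass at 43.1 to 45 CPM untreated and 39.1, 41.6 and 43.1 CPM after plasma, and vimentin (VIM) and ZEB2 had too few counts to be tested.

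Squamous epithelium markers moved in both directions. Of 24 such markers 10 rose and 13 fell, with a median of -0.24. KRT5, the basal keratin, measured 4192, 4062 and 4001 CPM untreated and 1427, 1234 and 1182 CPM after plasma (log2 -1.67, SE 0.08, adjusted p 7.93e-05), and its partner KRT14 measured 457, 447 and 435 CPM and 277, 251 and 260 CPM (-0.77, SE 0.03, adjusted p 1.41e-36). TP63, which maintains the basal state, measured 443, 446 and 462 CPM and 277, 292 and 266 CPM (log2 -0.69). All 3 were lower in every plasma library. The desmosomal genes PKP1 (log2 -1.43), DSC3 (-1.27) and DSG3 (-0.87) and the cadherin FAT2 (-1.37) fell too. S100A2 (log2 1.04), the laminin receptor chain ITGA6 (0.57), COL17A1 (0.32), LAMB3 (0.23), SOX15 (0.43), BNC1 (0.29) and SFN (0.21) rose, and ITGB4 did not pass. Among the other keratins of the list KRT15 (-0.73), KRT16 (-1.24) and KRT17 (-1.10) fell and KRT6A (0.28) and KRT6B (0.95) rose, but KRT6A, KRT6B, KRT16 and KRT17 have near-identical copies, so their values are uncertain.

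Of 29 keratinocyte differentiation genes 18 had enough counts to be tested, of which 12 fell and 1 rose, with a median of -1.26. KRT13, the partner of KRT4 in mucosa, measured 132, 133 and 135 CPM untreated and 30.5, 24.2 and 22.3 CPM after plasma (log2 -2.39, SE 0.08, adjusted p 1.95e-12). TGM1, the transglutaminase that crosslinks the cell envelope, measured 51.8, 44.8 and 44.8 CPM and 16.3, 13.2 and 13.5 CPM (log2 -1.72, SE 0.08), and the differentiation factor ZNF750 measured 6.65, 7.54 and 7.42 CPM and 2.61, 2.79 and 3.17 CPM (-1.33). Every plasma library of these genes was lower than every untreated one. The calcium-binding protein S100A9 fell by 2.11 on the log2 scale, while KRT10 (33.9, 34.6 and 33.2 and 31.8, 28.9 and 33.6 CPM) did not pass. The member that rose, SBSN, stayed under 2 CPM. Of 23 epithelial junction genes 5 rose and 15 fell, with a median of -0.20. The tight junction claudin CLDN1 measured 341, 344 and 339 CPM and 112, 108 and 101 CPM (log2 -1.67, SE 0.04, adjusted p 4.84e-60), desmoplakin DSP measured 1770, 1717 and 1760 CPM and 863, 792 and 765 CPM (-1.12), and E-cadherin CDH1 measured 373, 374 and 374 CPM and 237, 228 and 222 CPM (-0.71, adjusted p 6.12e-35). EPCAM (log2 0.50), OCLN (0.33) and CLDN7 (0.25) rose.

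**Figure D3:**
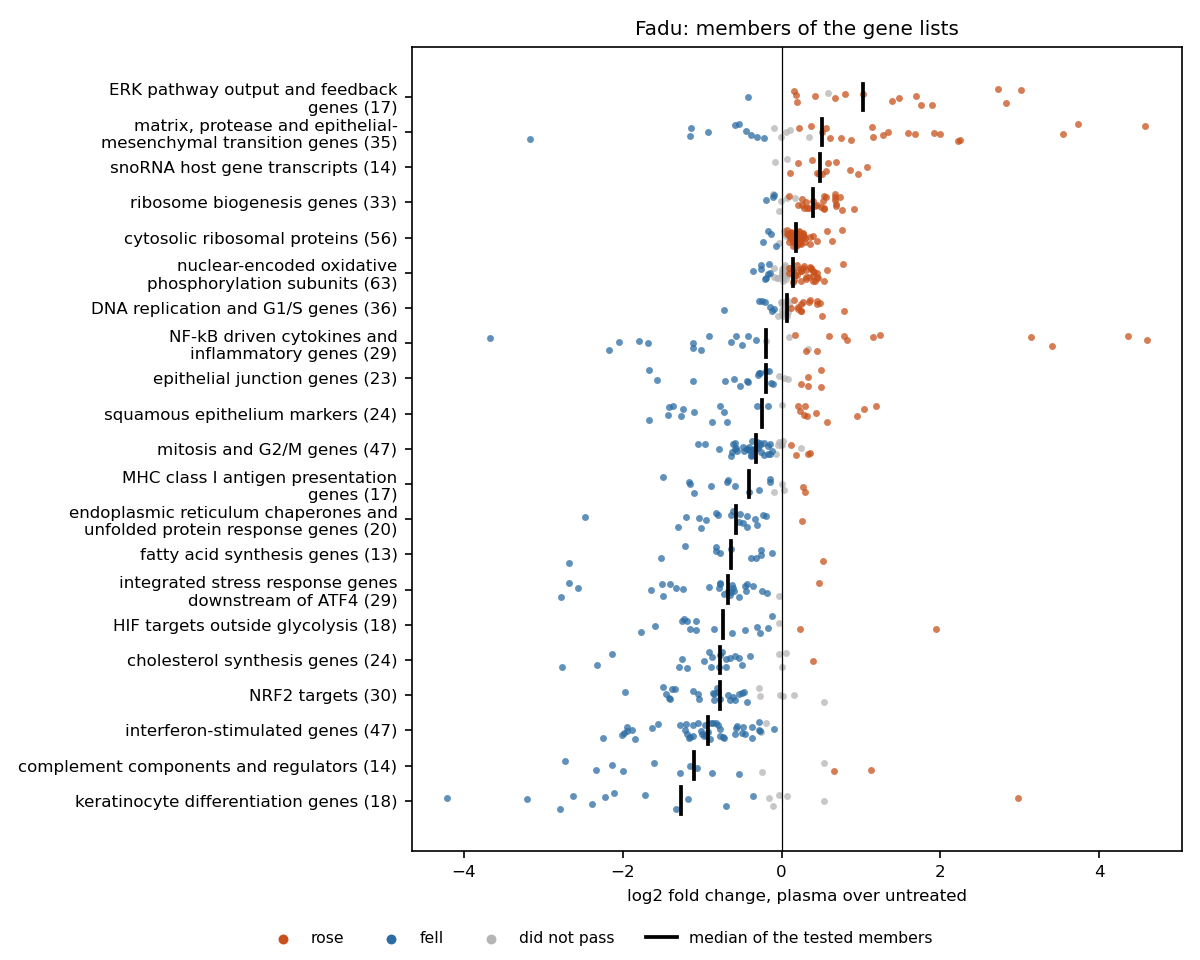
Each point is a tested member of a gene list, placed by its log2 fold change in Fadu (plasma over untreated), orange where it rose, blue where it fell and grey where it did not pass, and black bars are list medians, with the number tested in brackets. The bar stands at 1.02 for ERK output and feedback genes, at -0.92 for interferon-stimulated genes and at -1.26 for keratinocyte differentiation genes, and the NF-kB list is spread on both sides of 0.

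Lipid synthesis genes were lower almost throughout. SREBF1 and SREBF2, the transcription factors that switch on fatty acid and cholesterol synthesis, measured 560, 542 and 536 CPM untreated and 214, 172 and 185 CPM after plasma (SREBF1, log2 -1.52, SE 0.09, adjusted p 4.11e-05) and 551, 549 and 545 CPM and 262, 228 and 233 CPM (SREBF2, -1.19, SE 0.04, adjusted p 4.22e-34). Of 24 cholesterol synthesis genes 20 fell and 1 rose, with a median of -0.77. HMGCS1, at the entry of the mevalonate pathway, measured 160, 158 and 154 CPM and 66.2, 64.2 and 62.5 CPM (log2 -1.29, SE 0.04). IDI1 (log2 -1.25), DHCR7 (-0.89) and SQLE (-0.58) fell further along the pathway. INSIG1, the sterol-regulated brake of SREBP processing (log2 -2.32), and the sterol carrier STARD4 (-2.14) fell more than 4-fold. FDPS, NSDHL and PMVK did not pass, and EBP rose by 0.39. Of 13 fatty acid synthesis genes 12 fell and 1, the elongase ELOVL6, rose, with a median of -0.63. The fatty acid synthase FASN measured 1394, 1350 and 1358 CPM and 917, 849 and 890 CPM (log2 -0.63, SE 0.03), the carboxylase ACACA fell by 0.83 and the desaturase FADS1 by 1.21 on the log2 scale. Synthesis genes were thus lower in both branches, with no plasma library above an untreated one in the genes whose libraries are given here.

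NRF2 targets were lower at 24 h. Of 30 tested targets 24 fell, 0 rose and 6 did not pass, with a median of -0.78, and 10 fell at least 2-fold. For glutathione, the cystine carrier SLC7A11 measured 246, 256 and 254 CPM untreated and 94.7, 92.3 and 81.9 CPM after plasma (log2 -1.49, SE 0.04, adjusted p 7.17e-46). The rate-limiting ligase subunit GCLC measured 247, 251 and 249 CPM and 107, 98 and 90.4 CPM (log2 -1.34, SE 0.04, adjusted p 2.53e-41), and its modifier GCLM measured 222, 220 and 219 CPM and 142, 145 and 136 CPM (-0.65). All plasma libraries lay below all untreated ones in these 3 genes. Of the NADPH enzymes, PGD measured 235, 212 and 231 CPM and 130, 120 and 125 CPM (log2 -0.85), and TKT fell by 0.81 on the log2 scale. The heme oxygenase HMOX1 measured 45.9, 44.1 and 43.9 CPM and 19.5, 15.5 and 15.1 CPM (log2 -1.42, SE 0.07), NQO1 fell by 0.59, and the ferritin chains FTH1 and FTL fell by 1.05 and 0.77. TXNRD1, which reduces thioredoxin, measured 1316, 1313 and 1284 CPM and 910, 907 and 868 CPM (log2 -0.54). SRXN1, OSGIN1, ABCC2, ABCB6, CBR1 and NMRAL2P did not pass. AKR1C1 has near-identical relatives and its log2 fold change of -1.41 is uncertain.

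Of 10 lists searched for a motif, promoters are shown for the pair with the medians farthest from 0. They are given here for 3 NRF2 targets that passed the test with the smallest p among those holding the element through which NRF2 binds, the antioxidant response element, searched as TGACNNNGC on both strands. The 250 bases before the RefSeq start (GRCh38.p14) are given 5′ to 3′ on the gene's own strand, with the match in capitals, for PGD at chr1:10398814-10399063 (plus strand), TXNRD1 at chr12:104215529-104215778 (plus strand) and GCLM at chr1:93909431-93909680 (minus strand).
PGD: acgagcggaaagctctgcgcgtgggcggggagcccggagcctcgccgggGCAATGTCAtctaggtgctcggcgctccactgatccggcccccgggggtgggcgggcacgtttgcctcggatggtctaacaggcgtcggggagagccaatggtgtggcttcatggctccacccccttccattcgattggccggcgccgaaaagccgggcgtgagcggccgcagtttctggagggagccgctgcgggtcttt
TXNRD1: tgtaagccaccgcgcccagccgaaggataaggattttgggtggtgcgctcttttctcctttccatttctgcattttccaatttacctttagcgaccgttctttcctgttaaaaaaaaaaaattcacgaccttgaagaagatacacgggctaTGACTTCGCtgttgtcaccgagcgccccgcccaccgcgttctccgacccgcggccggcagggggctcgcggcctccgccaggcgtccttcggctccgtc
GCLM: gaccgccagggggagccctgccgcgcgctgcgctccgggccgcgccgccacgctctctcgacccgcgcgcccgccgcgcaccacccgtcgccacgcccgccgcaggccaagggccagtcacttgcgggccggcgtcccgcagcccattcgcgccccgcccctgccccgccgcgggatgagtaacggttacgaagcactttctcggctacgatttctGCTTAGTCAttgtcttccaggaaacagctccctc
The first base of the match lies 201 bases before the start in PGD, 99 bases in TXNRD1 and 34 bases in GCLM, and the element reads on the opposite strand in PGD and GCLM. Of the 21 NRF2 targets whose promoter was available 7 held a match (33.3%), against 13.2% of all 27305 genes with a promoter available. A gene with several promoters was counted when any of them held a match. A match describes letters in the window and shows no binding.

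Antioxidant enzymes were split, whereas ferroptosis and iron handling genes mostly fell. The iron list shares SLC7A11, FTH1, FTL and HMOX1 with the NRF2 targets above. Of 22 antioxidant enzymes 9 rose and 12 fell, with a median of -0.10. SOD2, the mitochondrial superoxide dismutase, measured 534, 548 and 552 CPM untreated and 188, 162 and 161 CPM after plasma (log2 -1.68, SE 0.05, adjusted p 4.06e-18), a fall without overlap. The glutathione peroxidases GPX2 (log2 -1.51) and GPX4 (-0.74) fell, as did catalase CAT (-0.58) and PRDX1 (-0.36), while GPX1 (0.36) and PRDX4 (0.44) rose. Of 25 ferroptosis and iron handling genes 4 rose and 16 fell, with a median of -0.28, and the transferrin receptor TFRC measured 599, 606 and 607 CPM and 395, 400 and 352 CPM (log2 -0.66). GPX4, which removes lipid peroxides from membranes, measured 86.9, 87.5 and 88.4 CPM and 54, 51.4 and 51.5 CPM (adjusted p 1.29e-25).

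**Figure D4:**
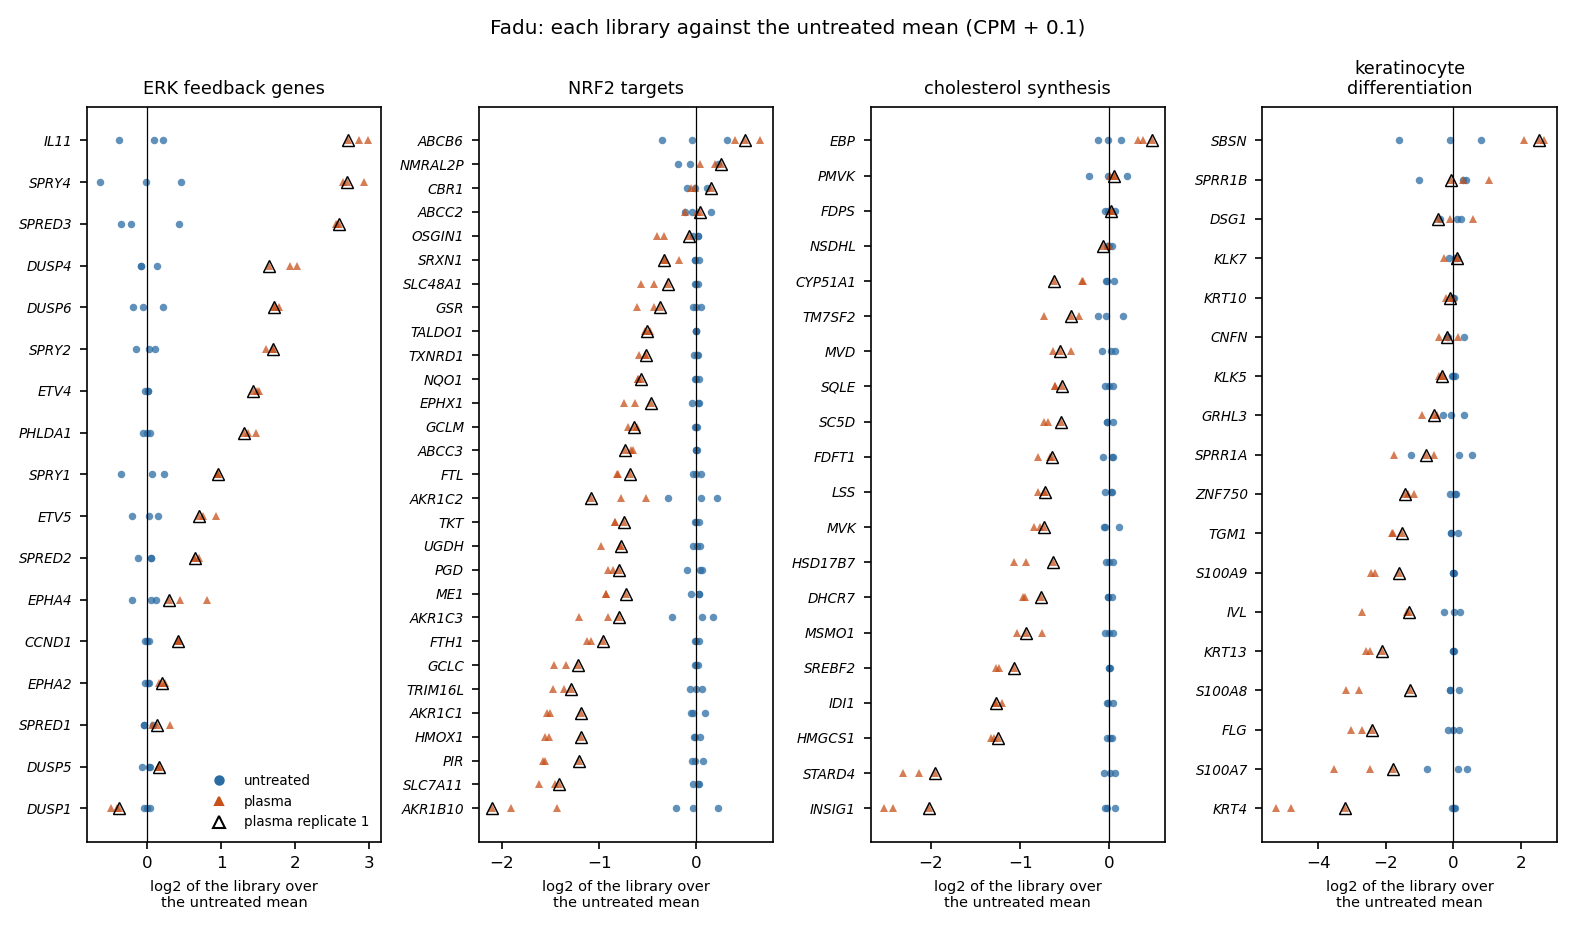
Level of tested members of 4 lists in each Fadu library, as the log2 ratio to the mean of the 3 untreated libraries after adding 0.1 CPM, with blue circles untreated, orange triangles plasma and an outlined triangle for plasma replicate 1. Most ERK genes lie to the right of 0, with DUSP1 to the left, most NRF2, cholesterol and differentiation genes lie to the left, and plasma replicate 1 is the plasma library nearest to 0 in many of the falls.

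Stress programs of the endoplasmic reticulum and of amino acid shortage were lower too. Of 29 genes downstream of ATF4 27 fell, 1 rose and 1 did not pass, with a median of -0.68. ATF4 itself measured 839, 826 and 802 CPM untreated and 562, 520 and 532 CPM after plasma (log2 -0.61, SE 0.03, adjusted p 2.98e-33), and its partner DDIT3 (CHOP) measured 45, 44.5 and 45.5 CPM and 16.5, 12.2 and 14.9 CPM (-1.64, SE 0.08). Amino acid genes fell with them, among them the transporter SLC7A5 (log2 -0.77), the asparagine synthetase ASNS (-1.24), the serine enzyme PHGDH (-0.63) and the glutathione-degrading enzyme CHAC1 (-2.56). PPP1R15A, which restores translation by removing phosphate from eIF2, was the member that rose, from 61.6, 60.7 and 59.1 CPM to 82.6, 77.9 and 90.8 CPM (log2 0.47). Of 20 endoplasmic reticulum chaperone and unfolded protein response genes 19 fell and 1, SEC61B, rose, with a median of -0.57. The chaperone HSPA5 (BiP) measured 2490, 2482 and 2463 CPM and 1293, 1161 and 1155 CPM (log2 -1.04, SE 0.03, adjusted p 3.93e-32), the ER degradation gene HERPUD1 measured 498, 519 and 497 CPM and 110, 84.2 and 77.9 CPM (-2.48, SE 0.15, adjusted p 0.000155), and XBP1 measured 238, 242 and 242 CPM and 147, 132 and 127 CPM (-0.83). Plasma libraries were the lower ones in all 3 genes.

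Genes of nutrient and energy sensing moved in both directions. Besides TXNIP and ARRDC4, the mTOR inhibitors SESN2 and DDIT4 measured 104, 105 and 101 CPM untreated and 40.3, 34.1 and 35.8 CPM after plasma (SESN2, log2 -1.49, SE 0.05) and 914, 895 and 898 CPM and 371, 327 and 326 CPM (DDIT4, -1.40, SE 0.04). SESN1 (log2 -0.74, adjusted p 0.0501 with limma on log2(TPM + 1) without a filter), SESN3 (-1.08) and ARRDC3 (-0.63) fell. ARRDC2 had a log2 fold change of 0.24 and lost its call without untreated replicate 2 (adjusted p 0.164), untreated replicate 3 (0.0685), plasma replicate 1 (0.0691) or plasma replicate 2 (0.137). In all, 3 of 10 tested members rose and 6 fell. Of 22 glycolysis genes 3 rose and 16 fell, with a median of -0.29. The glucose transporter SLC2A1 measured 707, 702 and 680 CPM and 392, 376 and 370 CPM (log2 -0.88, SE 0.03, adjusted p 2.79e-44), SLC2A3 fell by 1.83, and GAPDH measured 3090, 3013 and 2961 CPM and 2449, 2409 and 2308 CPM (-0.34). Of 18 targets of the hypoxia factor HIF outside glycolysis 2 rose and 15 fell, with a median of -0.74 (-0.43 with limma on log2(TPM + 1)). NDRG1 measured 904, 903 and 938 CPM and 436, 411 and 393 CPM (log2 -1.15, SE 0.03), and the peptide hormone ADM (-1.23), the mitophagy gene BNIP3L (-1.25) and the oxygen sensor EGLN3 (-1.08) fell. ANGPTL4, a lipoprotein lipase inhibitor that PPAR receptors also drive, rose from 9.18, 8.9 and 10.1 CPM to 35.8, 36.2 and 36.4 CPM (log2 1.95, SE 0.08). VEGFA had a log2 fold change of -0.12, a call lost when libraries were scaled by their totals alone (adjusted p 0.695).

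Interferon-stimulated genes fell almost throughout. All 47 members were tested, of which 45 fell, 0 rose and 2, RIGI and IFITM2, did not pass, with a median of -0.92, and 19 fell at least 2-fold. Of the proteins that carry the interferon signal to these genes, STAT2 fell by 0.49 and IRF9 fell by 0.57 on the log2 scale. Antiviral effectors included OAS2, which senses double-stranded RNA, at 112, 118 and 115 CPM untreated and 34.4, 30.2 and 31.4 CPM after plasma (log2 -1.85, SE 0.05, adjusted p 1.39e-52), MX1 at 142, 143 and 150 CPM and 53.5, 49.7 and 45.1 CPM (-1.56, SE 0.05), and the restriction factor TRIM22 at 73.8, 77.2 and 74.1 CPM and 21.2, 19.8 and 17.2 CPM (-1.95, SE 0.06). The ADP-ribosyltransferase PARP14 measured 349, 360 and 354 CPM and 168, 167 and 158 CPM (log2 -1.11), and the ubiquitin ligase DTX3L fell by 1.15. No plasma library of these genes reached the untreated range. ISG15 moved least, at 246, 236 and 237 CPM and 234, 209 and 234 CPM (log2 -0.09, adjusted p 0.0385). That call was lost under most alternatives, including when any untreated library or plasma replicate 2 was left out, and the log2 fold change was 0.02 when libraries were scaled by their totals alone.

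Promoters are given for PARP14, MX1 and OAS3, the 3 interferon-stimulated genes with the smallest p whose 250 bases before the RefSeq start (GRCh38.p14) hold the interferon-stimulated response element, the site bound by the complex that holds STAT2 and IRF9, searched as GAAANNGAA on both strands. They are written 5′ to 3′ with matches in capitals, for PARP14 at chr3:122680589-122680838, MX1 at chr21:41431800-41432049 and OAS3 at chr12:112938224-112938473, all on the plus strand.
PARP14: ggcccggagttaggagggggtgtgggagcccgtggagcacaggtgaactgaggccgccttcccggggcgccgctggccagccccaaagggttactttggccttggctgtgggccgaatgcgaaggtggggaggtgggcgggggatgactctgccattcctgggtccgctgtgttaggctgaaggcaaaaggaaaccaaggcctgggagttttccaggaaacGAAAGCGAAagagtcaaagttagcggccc
MX1: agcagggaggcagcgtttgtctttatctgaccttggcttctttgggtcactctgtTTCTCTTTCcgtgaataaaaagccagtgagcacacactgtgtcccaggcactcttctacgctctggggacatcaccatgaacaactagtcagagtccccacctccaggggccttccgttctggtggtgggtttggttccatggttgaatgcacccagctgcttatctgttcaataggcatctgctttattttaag
OAS3: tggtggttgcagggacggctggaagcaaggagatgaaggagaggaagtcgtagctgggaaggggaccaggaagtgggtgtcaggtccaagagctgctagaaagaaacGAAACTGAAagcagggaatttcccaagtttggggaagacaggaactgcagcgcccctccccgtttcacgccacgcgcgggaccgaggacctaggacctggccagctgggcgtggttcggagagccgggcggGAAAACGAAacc
The first base of the match lies 29 bases before the start in PARP14 and 195 bases in MX1, where the element reads on the opposite strand. OAS3 holds 2 matches, the nearer one beginning 12 bases before the start. OAS3 measured 635, 609 and 628 CPM untreated and 350, 330 and 324 CPM after plasma (log2 -0.90, SE 0.03). Of the 37 interferon-stimulated genes whose promoter was available 24 held a match (64.9%), against 8.41% of all 27305 genes with a promoter available.

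Genes that load MHC class I molecules fell while some of the heavy chains did not. Of 17 tested members 2 rose and 12 fell, with a median of -0.41. The peptide-trimming enzyme ERAP2 measured 223, 223 and 226 CPM untreated and 109, 98.7 and 93.5 CPM after plasma (log2 -1.16, SE 0.04, adjusted p 3.39e-41), and tapasin TAPBP measured 149, 142 and 134 CPM and 72.5, 60.9 and 58.2 CPM (-1.15). ERAP1 (log2 -0.89), the immunoproteasome subunits PSMB10 (-1.49), PSMB9 (-0.68) and PSMB8 (-0.58), the peptide transporter TAP1 (-0.41) and B2M (-0.29) fell. HLA-B rose by 0.27 on the log2 scale, and HLA-C and NLRC5 did not pass. HLA genes share sequence, so reads may be divided between them. Of 14 complement genes 10 fell and 2 rose, with a median of -1.10, which was -0.56 with limma on log2(TPM + 1). Complement C3 measured 178, 179 and 182 CPM untreated and 48.6, 36.7 and 37.3 CPM after plasma (log2 -2.14, SE 0.11, adjusted p 2e-05), and C1S (log2 -2.33) and CFB (-1.99) fell with C1R. The 2 members that rose shield cells from complement, CD55 from 70.1, 69.1 and 70.9 CPM to 148, 156 and 153 CPM (log2 1.12) and CD59 by 0.66, whereas CD46, also a shield, fell by 0.53.

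The NF-kB list of 34 genes was divided. Of 29 tested members 12 rose and 14 fell, with a median of -0.19 and changes from -3.67 to 4.6. Of the neutrophil chemokines CXCL1 rose, at 50.4, 51.2 and 48.9 CPM untreated and 108, 110 and 115 CPM after plasma (log2 1.15, SE 0.05, adjusted p 1.86e-39), as did CXCL8, at 138, 138 and 136 CPM and 235, 234 and 240 CPM (0.79, SE 0.04, adjusted p 1.36e-35), and CXCL3 (log2 1.24). CXCL2 did not pass (13.8, 16.4 and 15.5 CPM and 12.6, 13.8 and 13.7 CPM, adjusted p 0.0926), and CXCL5 and CXCL6 had too few counts to be tested, with 0 in every plasma library. The cytokines IL24 (from 0.371, 0.359 and 0.607 CPM to 8.81, 9.29 and 9.18 CPM), CSF2 (log2 4.6) and CSF3 (3.14) rose from under 1 CPM. Without untreated replicate 2 the log2 fold change of CSF2 was 5.28. Of the lymphocyte and monocyte factors that fell, CCL20 went from 17.5, 20.2 and 18.1 CPM to 4.19, 4.12 and 4.13 CPM (log2 -2.17, SE 0.11), with CCL5 (-1.68), CXCL10 (-3.67) and CSF1 (-1.12). CXCL10 was near the floor, at 1.7, 1.99 and 1.45 CPM untreated and 0.235, 0.164 and 0 CPM after plasma. Without plasma replicate 1 its log2 fold change was -4.26. Of the feedback inhibitors of NF-kB, TNFAIP3 rose from 291, 286 and 286 CPM to 498, 513 and 519 CPM (log2 0.83) and NFKBIA fell from 213, 212 and 217 CPM to 114, 102 and 104 CPM (-1.01). TNFAIP2 measured 1703, 1687 and 1710 CPM and 558, 441 and 477 CPM (log2 -1.79), ICAM1 fell by 1.11, IL1A fell by 0.32 and IL1B rose by 0.17 (adjusted p 0.0728 when the 24 libraries were fitted together), and IL6, at 1.92, 2.4 and 1.48 CPM and 2.58, 2.51 and 2.28 CPM, did not pass.

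Surface ligands that regulate T and NK cells moved both ways. Of 16 tested checkpoint genes 6 rose and 9 fell, with a median of -0.26. Besides NT5E, CD274 (PD-L1), which restrains T cells through PD-1, measured 14.8, 18.7 and 18.3 CPM untreated and 33.9, 37.4 and 38.6 CPM after plasma (log2 1.09, SE 0.08, adjusted p 7.82e-22), with no overlap. PDCD1LG2 (PD-L2) rose by 1.66 from about 1 CPM, and the TIGIT ligand PVR rose by 0.37. CD47, the signal against phagocytosis, fell from 286, 299 and 297 CPM to 240, 243 and 228 CPM (log2 -0.31), and VSIR (-0.57) and LGALS9 (-2.37) fell. Of 10 ligands of NK activating receptors 5 rose and 2 fell, with a median of 0.29. The NKp30 ligand NCR3LG1 measured 28.5, 30.1 and 29 CPM and 46.2, 50.2 and 49 CPM (log2 0.73), the NKG2D ligands MICB (0.75), ULBP2 (0.44) and ULBP3 (0.45) rose, ULBP1 fell (-0.42), and MICA did not pass.

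Most mitotic genes fell, by small amounts, and more replication genes rose than fell. Of 47 mitosis and G2/M genes 36 fell and 4 rose, with a median of -0.32. The kinetochore gene CENPF measured 522, 519 and 526 CPM untreated and 261, 257 and 241 CPM after plasma (log2 -1.05, SE 0.03, adjusted p 2.47e-48), and ASPM (-0.79), CENPE (-0.96), TOP2A (-0.59) and MKI67 (-0.56) fell. MKI67, the usual proliferation marker, measured 881, 844 and 886 CPM and 589, 581 and 598 CPM, without overlap. Of 36 replication and G1/S genes 15 rose and 7 fell, with a median of 0.07, and the phosphatase CDC25A rose by 0.79 on the log2 scale. Repair genes moved little, with 12 rises and 20 falls among 48 double-strand break and crosslink repair genes (median -0.06, or 0.05 when libraries were scaled by their totals alone) and 10 rises and 5 falls among 29 excision repair genes (median 0.03). Over all genes tested 26.3% rose and 27% fell. BRCA2 (-0.65) and NBN (-0.63) fell, and XRCC3 (0.51) and FANCA (0.49) rose.

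Targets of p53 were divided as well, with 9 rises and 12 falls among 26 and a median of -0.20. The cell cycle inhibitor CDKN1A (p21) measured 42.7, 41.2 and 42.1 CPM untreated and 86.9, 88 and 90 CPM after plasma (log2 1.07, SE 0.05, adjusted p 2.25e-35), and the nuclease AEN measured 41.8, 39.2 and 41.3 CPM and 97.6, 105 and 103 CPM (1.32, SE 0.05). GDF15, a stress hormone that ATF4 also drives, measured 100, 99.3 and 105 CPM and 40.3, 34.1 and 34.1 CPM (log2 -1.50, SE 0.05), and MDM2 (-0.35), RRM2B (-0.89), CCNG1 (-0.59) and BBC3 (-1.03) fell. Of 35 tested BCL2 family, caspase and death receptor genes 11 rose and 18 fell, with a median of -0.18. The death ligand TNFSF10 (TRAIL) fell from 54.7, 55.9 and 56.8 CPM to 16.1, 13.5 and 12.6 CPM (log2 -1.99, SE 0.07), and its receptor TNFRSF10B rose by 0.26. BAX (0.48), BAK1 (0.32) and cytochrome c CYCS (0.42) rose, while MCL1 (-0.35), XIAP (-0.47), APAF1 (-0.61), BID (-0.60) and CASP9 (-0.52) fell.

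Most ribosomal protein and ribosome biogenesis genes rose by small amounts. Of 56 cytosolic ribosomal protein genes 48 rose and 4 fell, with a median of 0.18, and of 33 ribosome biogenesis genes 25 rose and 3 fell, with a median of 0.40. Of 20 aminoacyl-tRNA synthetases, which charge tRNAs for translation, 7 rose and 7 fell, with a median of -0.03 (0.08 when libraries were scaled by their totals alone). Fold changes leaned on gene length and GC content (Spearman correlation over 18687 genes -0.183 and 0.153, across genes, which are not replicates). With that trend removed the medians were 0.07 and 0.36, so most of the small median of the ribosomal proteins moved with gene length and GC. The nucleolar protein NOP56 measured 185, 180 and 184 CPM untreated and 289, 298 and 286 CPM after plasma (log2 0.67, SE 0.03, adjusted p 3.85e-32), and RPS13 measured 219, 221 and 217 CPM and 315, 330 and 329 CPM (0.57). Of 14 host transcripts, which carry small nucleolar RNAs in their introns, 12 rose and 0 fell, with a median of 0.49. SNHG15 measured 36.7, 34.2 and 32.3 CPM and 69.9, 70.8 and 75.4 CPM (log2 1.07, SE 0.06), and GAS5 measured 215, 224 and 216 CPM and 313, 322 and 328 CPM (0.56, SE 0.03). Of 63 nuclear-encoded respiratory chain subunits 34 rose and 8 fell (median 0.15), and of 31 proteasome subunits 16 rose and 4 fell (median 0.12), with NDUFB9 rising by 0.57 and PSMD2 by 0.39. Of 22 heat shock genes 11 rose and 6 fell (median 0.06). HSPA1A rose from 59.2, 67.5 and 61.4 CPM to 94.3, 99 and 103 CPM (log2 0.66), and HSPE1 (0.70) and CHORDC1 (0.42) rose. HSPB1, a small heat shock protein, fell from 255, 255 and 247 CPM to 129, 110 and 115 CPM (log2 -1.10), and DNAJB1 fell by 0.75.

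The Fadu response differed from that of the other lines in many genes. In a joint fit of all 24 libraries, the Fadu log2 fold change minus the mean of the Cal27, A375 and Hth83 log2 fold changes passed the test in 8523 of 23642 genes (36.1%), 4273 of them higher in Fadu (18.1%) and 4250 lower (18%). Fadu was grown in another medium than the other lines, so line and medium cannot be told apart. Of 17 ERK output and feedback genes 13 were higher in Fadu and 0 lower, and the list medians were -0.04, 0.03 and -0.26 in Cal27, A375 and Hth83. DUSP6, for example, differed by 1.86 on the log2 scale (SE 0.07, adjusted p 4.35e-26), with -0.01, 0.09 and -0.36 in Cal27, A375 and Hth83. Of 30 NRF2 targets 27 were lower in Fadu, with medians of 0.45, 0.27 and -0.04 in Cal27, A375 and Hth83, and HMOX1 differed by -2.10 (SE 0.13, adjusted p 2.04e-18), having a log2 fold change of 0.44, 1.05 and 0.56 in those lines. Values lower than the mean of the other lines were also found in 17 of 24 cholesterol synthesis genes and 12 of 13 fatty acid synthesis genes. The same held for 34 of 47 interferon-stimulated genes and 41 of 47 mitosis genes. The interferon fall was not particular to Fadu, as 45 of the 47 members also fell in Cal27.

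ATF4-driven genes fell in Fadu, and their medians were also below 0 in Cal27 (-0.29), A375 (-1.07) and Hth83 (-1.64), with 13 of 29 members higher in Fadu than the mean of the other lines and 4 lower. The interferon list had medians of -0.76 in Cal27, -0.01 in A375 and 0.34 in Hth83. Ribosome biogenesis genes had medians of -0.19 in Cal27, 0.42 in A375 and 0.29 in Hth83, with 17 of 33 members higher in Fadu than the mean of the other lines and 6 lower. Over all genes of the joint fit 18.1% were higher in Fadu and 18% lower. Of the 12 largest Fadu rises 8 differed from the other lines and were higher, TXNIP by 4.93 (SE 0.10, adjusted p 4.4e-26), with log2 fold changes of -0.29, -3.54 and 1.5 in Cal27, A375 and Hth83. Of the 12 largest falls 6 differed and were lower, SCD by -2.66 (SE 0.13, adjusted p 5.62e-12). The difference could not be estimated in several of the 24, among them TRPV3, CDH11, PTGS2, AADAC, KRT4, EDN2, TNNT3 and ALDH3B2, which had no count in at least 1 group of another line, and MUC16 did not pass (adjusted p 0.752).

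**Figure D5:**
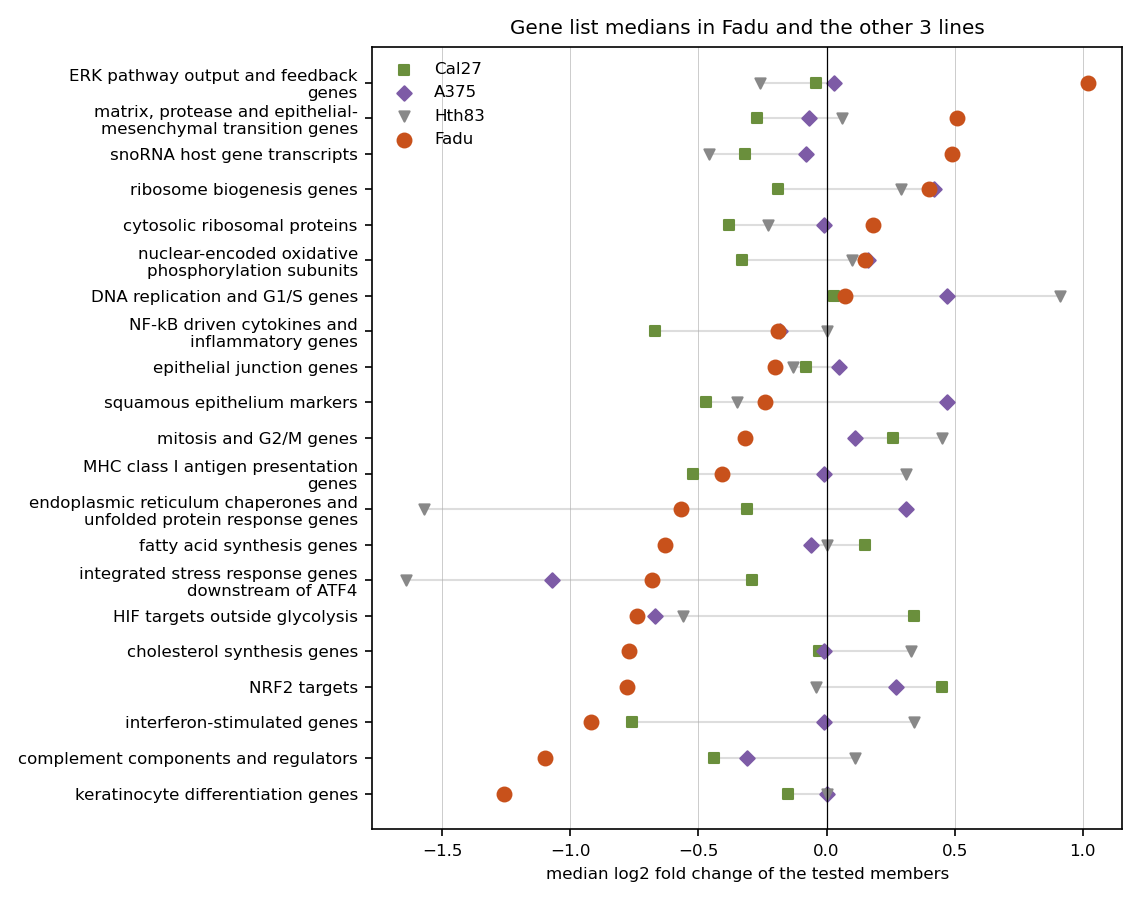
Median log2 fold change (plasma over untreated) of the tested members of each gene list in Fadu (orange circles) and in Cal27, A375 and Hth83 (squares, diamonds and triangles). Fadu stands to the right of the other lines in ERK output and feedback genes (1.02) and to the left in NRF2 targets (-0.78) and cholesterol synthesis genes (-0.77), while ATF4-driven genes are below 0 in all 4 lines.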

How the data were processed

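RNA was collected from Fadu cells 24 h after 0 or 60 s of plasma. Per the labels' protocols, Trizol was used for extraction, the SMARTER mRNA-Seq kit for library preparation and a HiSeq3000 for sequencing. HISAT2 and GRCh38 are named per the submitters' processing notes, while no source used here gives the aligner version, the counting tool, the annotation or the use of strand. The authors deposited whole-number read counts and TPM for 61533 gene identifiers in each library. The deposited TPM equal the counts divided by 1 length per gene and scaled, to within a relative 4.1e-13. Symbols came from a gene name table for 61369 identifiers and from GENCODE 29 for 149, and 15 had none.

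Counts were tested with edgeR 4.0.16 in R 4.3.3 (TMM scaling, filterByExpr with a minimum count of 10 and a minimum total of 15, quasi-likelihood test, Benjamini-Hochberg adjustment over all genes tested, threshold 0.05), on the 6 Fadu libraries, and for the difference between lines on all 24. DESeq2 1.42.0 and limma 3.58.1 on log2(TPM + 1) were alternatives, with other scalings, filters, a replicate block and each library left out. On simulated counts for 18719 genes, edgeR recovered 73% of 2-fold and 36% of 1.2-fold changes, and 2.68% of its calls were false. Few genes were changed in that simulation, as many up as down, whereas 53.3% of genes passed in the data. Its rates may therefore not hold for the data. In the simulated difference between lines, over 23124 genes, edgeR recovered 62% of 2-fold changes and 6.06% of its calls were false.

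The comparison, the 48 gene lists and their members were chosen with earlier results of these data known. Genes are named by rule as the 12 largest rises and falls that passed, reached 10 CPM in a group and did not overlap, the 4 tested members of each list with the smallest p and its defining members, and the 10 smallest p for the difference. Other list members named as examples were chosen after their values were seen. Some genes that the rule takes are not reported here, but counts and medians include them. Gene families with near-identical copies (HLA, metallothionein, ribosomal protein, AKR1C and keratin genes) are uncertain, as are overlapping genes. No interval is given for single levels, because groups of 3 libraries carry the error.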

Additional observations from a re-analysis of the deposited data

Results flagged for a closer look

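The Fadu change differed from the mean change of the other 3 lines in 8523 genes, by a test of the difference itself. The 10 genes with the smallest p among those that reached 10 CPM in Fadu are given here as the difference in log2 fold change, Fadu minus the mean of the others. The difference was 2.91 for FST (follistatin), 3.68 for ARRDC4, 3.59 for NT5E and 2.01 for HMGA2. It was 2.04 for UPP1 (uridine phosphorylase, 85.4, 84.5 and 88.4 CPM untreated and 246, 248 and 260 CPM after plasma in Fadu) and 1.54 for ODC1 (ornithine decarboxylase, the entry to polyamine synthesis, 113, 110 and 109 and 288, 302 and 311 CPM). It was 1.30 for CD44 (the hyaluronan receptor, 199, 197 and 198 and 465, 479 and 471 CPM), 1.73 for ETS1 (a transcription factor that ERK phosphorylates, 92.4, 81.8 and 86.7 and 255, 267 and 264 CPM) and 1.96 for IGF2BP2 (an RNA-binding protein). TNS3, a tensin of focal adhesions, had a difference of -2.26, with 209, 202 and 209 CPM untreated and 65.9, 57.6 and 53.9 CPM after plasma in Fadu. Medium and line cannot be told apart in these differences.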

How the results depend on the processing

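Over 17 alternatives the number of genes that passed ranged from 6860 to 10496, and leaving out each library gave 9431 to 9737. The count with a 2-fold change was 1203 with a filter of 1 CPM in 3 libraries, 934 with limma on log2(TPM + 1), 1187 on log2(TPM + 0.1) and 834 on log2(TPM + 1) without a filter, and 1719 to 1902 with a library left out. The difference from the other lines passed in 7853 to 9022 genes over 34 alternatives, and in 7853 to 8574 with a library left out. Deviations of samples with the same replicate number correlated weakly (r = 0.00311, 0.0304 and 0.0162), and not every sample correlated best with its own number, so the numbers were not taken as pairs. The replicate block gave 10183 genes, 1791 with a 2-fold change and 8350 for the difference. Of the list medians, 38 of 47 did not turn to the opposite sign, though that of drug handling genes went from 0.22 to -0.00 with limma on log2(TPM + 1). With libraries scaled by their totals alone the sign turned for EGF family genes (0.07), double-strand break repair (0.05), metallothioneins (0.07), tRNA synthetases (0.08), fibroblast markers (0.09) and leukocyte markers (0.04). With the length and GC trend removed, an alternative added after seeing the data, it turned for EGF family genes (0.02) and double-strand break repair (0.05). With limma it turned for fibroblast markers (0.01 without a filter), leukocyte markers (0.06 and 0.07) and thyroid markers (0.10 and 0.11), and with 1 CPM in 3 libraries for leukocyte markers (0.05). Leaving out 1 library turned excision repair (-0.01), metallothioneins (0.08), YAP targets (-0.07 to -0.01), fibroblast markers (range -0.04 to 0.02) and leukocyte markers (range -0.31 to 0.10, with 0.03 without plasma replicate 2). The cause was not tested. Of 332 genes with a call taken by the naming rule or as examples, 139 of them chosen after their values were seen, 320 kept direction and call under every alternative that tested them. The other 12 lost the call under at least 1 alternative (ESAM, PMEL, NPAS2, IL1B, BTC, VEGFA, SESN1, TWIST1, ZEB1, CD276, ARRDC2 and ISG15), and ISG15 also turned direction (0.02 with libraries scaled by their totals alone). Genes with too few counts for the filter could not be tested at this depth.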

Other observations

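Outside the groups above, MT2A, a metallothionein that binds zinc and copper, rose from 256, 250 and 277 CPM to 674, 589 and 682 CPM (log2 1.31, SE 0.07), while 2 of 5 tested metallothionein and zinc genes rose and 1 fell. SLC29A1, the nucleoside transporter that carries gemcitabine, rose from 34.1, 32.3 and 29.1 CPM to 88.8, 93.4 and 93.6 CPM (log2 1.53), and drug handling genes as a list had 6 rises and 6 falls among 17. The growth factor binding protein IGFBP3 fell from 419, 421 and 449 CPM to 121, 104 and 99.1 CPM, and the matricellular gene CCN2, a YAP target, from 63.1, 65.3 and 65.7 CPM to 17.8, 16.2 and 16.6 CPM, though the YAP list had 8 rises and 10 falls among 22. The lysosomal protease CTSD fell from 150, 154 and 152 CPM to 69.1, 59.7 and 63.8 CPM, with 6 rises and 17 falls among 34 autophagy and lysosome genes. Of 16 circadian clock genes 4 rose and 9 fell, where 26.3% of all genes tested rose and 27% fell. DBP measured 9.24, 11.1 and 8.71 CPM untreated and 5.59, 4.48 and 4.43 CPM after plasma, and NPAS2 measured 0.587, 0.608 and 1.28 CPM and 2.31, 1.5 and 1.79 CPM. ESM1, an endothelial cell proteoglycan, had no count in the 3 untreated libraries and 6.16, 7.16 and 7.48 CPM after plasma, at least 227-fold higher than a floor of 3 counts over the untreated group. Among endothelial markers, VWF and CDH5 fell and ERG and ESAM rose (ESAM had an adjusted p of 0.0648 with limma on log2(TPM + 1) without a filter), with summed levels of 10.9 to 12.2 CPM untreated and 6.62 to 7.57 CPM after plasma. Without plasma replicate 2 the log2 fold change of VWF was -3.62, against -2.63 with all libraries.

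Other promoter motifs were searched on both strands in the same 250 bases. The NF-kB site GGGNNTTCC was found in 41.7% of 24 list members and 7.01% of all genes with a promoter available, the heat shock element GAANNTTC in 60% of 20 and 7.05%, and the hypoxia element ACGTG in 66.7% of 15 and 21.7%. The members were chosen as known targets, so these shares describe the lists.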
